A study of Mus musculus with 34 samples.

Results

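The Zic genes encode zinc finger transcription factors, and the members described here are Zic1, Zic2, Zic4 and Zic5. They were found by matching the RefSeq accession of every probe on a mouse expression array to a gene symbol, which gave 6 probes of 4 genes among 55681 probes (controls left out) and 20145 named genes. Zic1 and Zic4 have 2 probes each, and Zic2 and Zic5 have 1 each. The data come from 3 male C57BL/6J mice aged 3 days, each of which gave 1 brain cut along a single axis: 15 coronal fractions (mouse 1), 8 horizontal fractions (mouse 2) and 11 sagittal fractions (mouse 3). No animal carried a transgene or received a treatment according to the labels. A fraction is a stack of 100 slices of 5 μm (500 μm), and sagittal fractions 1 and 11 each pool 2 such stacks. Each fraction has 1 single-colour Agilent array, so axis and mouse cannot be told apart. The p-values below rest on the spread between fractions of 1 brain and say nothing about other mice. In the block fits it is the spread between neighbouring fractions. In the sagittal fits it is the scatter around a straight line, or of differences between fractions at the same distance from the middle.

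Zic proteins bind DNA through C2H2 zinc fingers related to those of the Gli factors of hedgehog signalling. In the embryo the family is known for its part in neural crest and dorsal neural tube formation, and later for the control of proliferation in cerebellar granule cell precursors. The genes lie in the genome as linked pairs: Zic1 and Zic4 are neighbours on mouse chromosome 9, and Zic2 and Zic5 are neighbours on chromosome 14. Loss of human ZIC1 and ZIC4 has been linked with Dandy-Walker malformation of the cerebellum, and loss of ZIC2 with holoprosencephaly.

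Because linked genes may share a start region, the 250 bases before the start used by RefSeq are printed for the members found in its promoter table (3 of 4). The windows are on build GRCm38.p6, whereas the array files name mm9. Sequences run 5' to 3' on the strand of the gene, and capitals mark letters that match the motif CCAAT, the box of G and C letters GGGCGG, the E-box CACGTG, the box TATAAA or the Gli site GACCACCCA on either strand.
Zic1 (chr9:91365769-91366018, reverse strand): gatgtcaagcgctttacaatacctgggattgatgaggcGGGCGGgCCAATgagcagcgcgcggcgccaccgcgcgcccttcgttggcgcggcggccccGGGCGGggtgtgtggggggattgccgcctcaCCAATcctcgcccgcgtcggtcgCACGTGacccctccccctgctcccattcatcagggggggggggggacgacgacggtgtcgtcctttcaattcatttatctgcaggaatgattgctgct
Zic4 (chr9:91368722-91368971, forward strand): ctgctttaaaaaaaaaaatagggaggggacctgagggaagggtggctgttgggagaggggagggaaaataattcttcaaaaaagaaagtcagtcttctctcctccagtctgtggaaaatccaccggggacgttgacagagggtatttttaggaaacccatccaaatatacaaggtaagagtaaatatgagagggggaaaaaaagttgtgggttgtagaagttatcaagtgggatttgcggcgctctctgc
Zic5 (chr14:122465659-122465908, reverse strand): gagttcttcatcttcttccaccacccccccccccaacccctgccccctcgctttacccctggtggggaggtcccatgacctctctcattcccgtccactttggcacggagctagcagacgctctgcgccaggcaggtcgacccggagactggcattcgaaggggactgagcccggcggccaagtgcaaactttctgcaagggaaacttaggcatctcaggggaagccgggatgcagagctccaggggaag
Zic1 and Zic4 point away from each other, with 2703 bases between both windows. The Zic1 window held 2 matches to CCAAT, 2 to GGGCGG and 1 to CACGTG, and these words were found in 33.8%, 32.7% and 6.02% of the 32851 windows of the same length in the table. None of the searched words occurred in the Zic4 or Zic5 window, which says only that these letters are not in those 250 bases. TATAAA (12.4% of all windows) and GACCACCCA (0.225%) were in none of the Zic windows. G and C made up 66.0% of the Zic1 window, 44.4% of the Zic4 window and 62.4% of the Zic5 window, against a median of 52.4% over the table.

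Values are given as log2 normalized signal, which is the log2 of a probe's background-subtracted signal less the 75th percentile of its array. A level of 0 is therefore the 75th percentile of that array, and a difference of 1 is a factor of 2. Levels of different probes cannot be set against each other, and in whole tissue fewer cells of a type and less RNA per cell cannot be told apart. Detection means that the scanner software marked the majority of a probe's spots as well above background. Zic1, Zic2 and Zic4 were detected in all 34 fractions by every probe. Zic5 was detected in 31 of 34 and was not well above background in coronal fractions 13 and 14 and in sagittal fraction 1. Its signal was dim, between 4.6 and 277.8 intensity units.

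Between 29598 and 37091 spots of an array were well above background, no spot was saturated, and the arrays lay on 5 slides. Slide 2 held coronal fractions 1 to 8, slide 3 held coronal fractions 9 to 11 and 13 to 15 with sagittal fraction 1, slide 4 held sagittal fractions 2 to 9, and the remaining fractions were on slides 1 and 5. Where the numbering starts is not given in the labels, so marker lists were set beside the Zic values. Each of the 10 hindbrain Hox genes was higher in coronal fractions 1-3, and each of the 10 olfactory bulb genes was higher in fractions 13-15 (limma, adjusted p under 0.05). In the horizontal series the summed level of 10 hypothalamus genes was 0.56 to 1.86 in fractions 1-3 and 3.05 to 5.89 in fractions 6-8, although none of the 8 tested genes passed the threshold there. Across all probes the share of calls that were higher depended on the scaling. It was 38.3% in coronal fractions 1-3 (57.3% after median and 49.3% after quantile scaling), 45.4% in fractions 4-6 (32.1% after median scaling), 65.5% in fractions 10-12 (48.4% and 52.8%) and 64.7% for the sagittal distance (82.4% after median scaling).

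All 4 genes were highest, or close to highest, at the Hox-expressing end of the coronal series. Each of the 6 probes was higher in coronal fractions 1-3 than in the 12 other coronal fractions, by 1.81 to 3.19 fold (limma, adjusted p under 0.05). Of all 34186 tested probes, 7.66% were called higher there. Zic1, which granule cell precursors of the cerebellum are known to express, had levels of 6.63, 6.76 and 6.65 in fractions 1, 2 and 3. In the other 12 fractions its lowest, median and highest levels were 4.52, 5.39 and 5.93, so the groups did not overlap. Here and below, overlap describes the levels of Zic probes, and the share of all probes without overlap is not given. The difference was 1.39 ± 0.23 (SE, adjusted p = 0.0016 by limma), a factor of 2.61. The second Zic1 probe gave levels of 1.41, 1.29 and 0.93 against -0.50 to 0.39, a difference of 1.30 ± 0.19 (limma, adjusted p = 0.00089).

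Zic5 differed by 1.67 ± 0.28 at this end (limma, adjusted p = 0.0018), a factor of 3.19. With a normexp background correction its difference was 0.76 (limma, adjusted p = 0.00044), so its size, and its place among the 6 probes, depends on how the background is handled. Its levels were -1.68, -1.77 and -2.07 in fractions 1, 2 and 3, and between -4.78 and -2.37 in the other 12 with a median of -3.47. As for Zic1, every one of the first 3 fractions lay above every other. Zic2 was 1.19, 1.95 and 2.31 in fractions 1, 2 and 3, and its other coronal levels lay between -0.16 and 1.67 with a median of 0.67. Fraction 1 thus overlapped with the other fractions, and the difference was 1.18 ± 0.23 (limma, adjusted p = 0.0047). Within slide 2, against fractions 4 to 8 only, Zic2 differed by 0.79 and missed the threshold (limma, adjusted p = 0.063), while the other 5 probes passed it. Of all probes 13.3% were called in either direction there.

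Zic4, the neighbour of Zic1, rose too, with overlap between the groups. The level of its first probe was 2.15, 2.64 and 2.59 in fractions 1, 2 and 3, and 0.32 to 2.98 elsewhere with a median of 1.52, and fraction 9 was higher than any of the first 3. The difference was 0.85 ± 0.27 (limma, adjusted p = 0.043), and the call was lost when 11 of the 15 fractions were left out singly. Its second probe gave 1.06 ± 0.29 (limma, adjusted p = 0.023), lost without fraction 2 or fraction 3 (limma, adjusted p = 0.11 and 0.075).

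**Figure D1:**
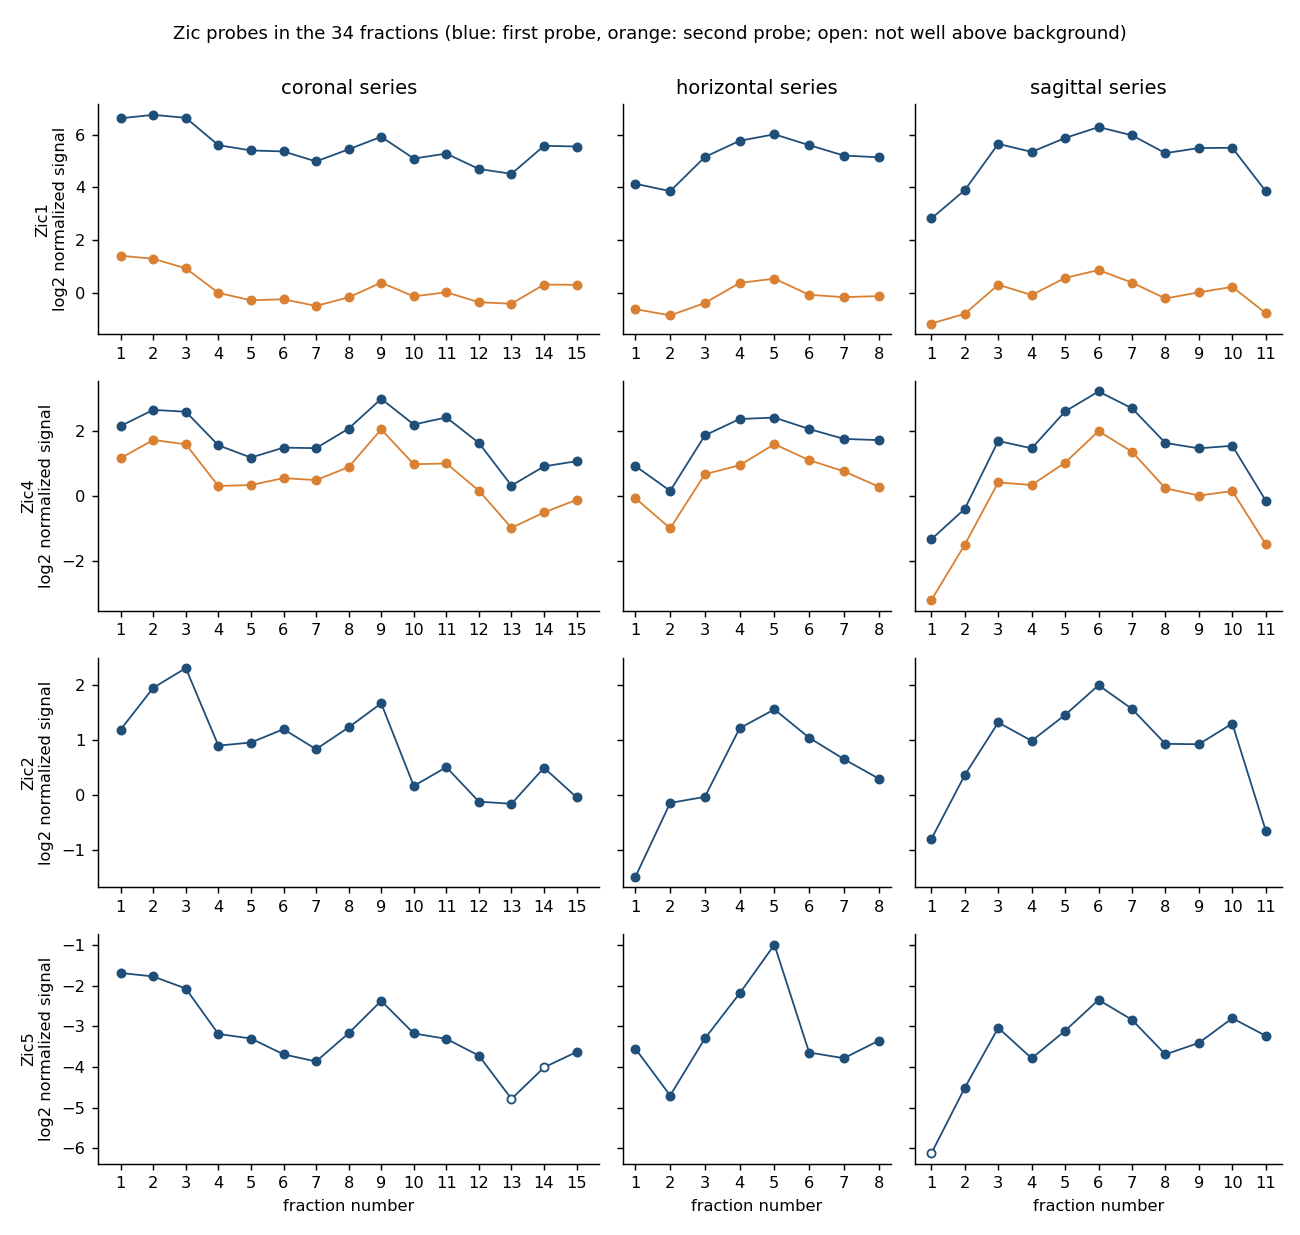
Log2 normalized signal (vertical axes) of the Zic probes against fraction number (horizontal axes), with 1 row per gene and 1 column per series; blue is the first and orange the second probe of a gene, and open points were not well above background. All 4 genes are high in coronal fractions 1 to 3, have a local peak in coronal fraction 9 and peak in horizontal fraction 5 and sagittal fraction 6; sagittal fractions 1 and 11 pool 2 cuts.

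Levels stepped down between coronal fractions 3 and 4, which lie next to each other on the same slide. The step was 1.04 for the first and 0.93 for the second Zic1 probe, and 1.03 for the first and 1.28 for the second Zic4 probe. It was 1.41 for Zic2 and 1.12 for Zic5, so the factor was 1.91 to 2.65. Several lists of cell types moved with the same fractions. All 10 Purkinje cell genes were higher in fractions 1-3, with a median difference of 2.33 against -0.07 over all probes, and their summed level was 5.61 to 6.74 there and 3.23 to 4.22 elsewhere. Among them were Pcp2 (5.27 ± 0.47), a Purkinje cell marker, Skor2 (4.65 ± 0.43) and Car8 (2.87 ± 0.31).

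Of 14 tested granule cell genes 10 were higher, 1 was lower and 3 did not pass the threshold, with a median difference of 1.92. The largest belonged to Atoh1 (6.31 ± 0.80), which specifies granule cell precursors, Barhl1 (4.27 ± 0.69) and Mab21l1 (2.92 ± 0.29), and the gene that fell was Etv1 (-1.15 ± 0.23). The summed level of this list was 6.78 to 7.01 in fractions 1-3 and 5.91 to 6.56 elsewhere. The Hox list had a median difference of 5.81, led by Hoxa5 (7.24 ± 0.91), Hoxb5 (6.55 ± 0.72) and Hoxb4 (6.44 ± 0.78). How far these cell types account for the Zic levels was not tested.

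Of 13 Gli factors and other hedgehog genes 8 were higher at this end, 1 was lower and 4 did not pass the threshold, with a median difference of 0.93. Gli2 (2.38 ± 0.29) and Gli1 (2.13 ± 0.22), transcription factors at the end of the pathway, and Boc (1.47 ± 0.16), a co-receptor, had the largest differences. Cdon, another co-receptor, fell by 0.44. In no other coronal block were more than 4 of the 13 called.

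Between fractions 4 and 8 the first Zic1 probe lay between 4.99 and 5.61 and Zic2 between 0.84 and 1.23. In the same fractions Zic5 lay between -3.86 and -3.17. The first Zic4 probe moved most, from 1.18 in fraction 5 to 2.07 in fraction 8. None of the 6 probes was called in fractions 4-6 (limma; 1 of 6 at an unadjusted p under 0.05) or in fractions 7-9 (0 of 6 unadjusted). The share of all probes called in either direction was 11.5% and 0.878%. Of the 8 tested midbrain genes 5 were higher in fractions 4-6, against 5.24% of all probes, with Gata3 (4.60 ± 0.81), Pax7 (4.58 ± 0.65) and En2 (3.15 ± 0.46) largest.

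A second peak stood in coronal fraction 9, where every one of the 6 probes was above both neighbouring fractions. For Zic4 this was the highest level of the whole coronal series, 2.98 for the first probe and 2.04 for the second, which is 0.52 and 0.55 above the mean of fractions 1-3. Zic1 reached 5.93, which is 0.75 below its mean in fractions 1-3. Zic2 reached 1.67, only 0.15 below that mean, and Zic5 reached -2.37, 0.53 below it. Each value is a single array, so the peak has no test of its own. The share of all probes with a peak there is not given.

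Fraction 9 is also the first coronal fraction on slide 3, fraction 8 being on slide 2. Against fraction 8 the first probes of the 4 genes were 0.44 to 0.91 higher. Against fraction 10, on the same slide as fraction 9, they were higher by 0.83 (Zic1), 0.79 (Zic4), 1.499 (Zic2) and 0.80 (Zic5). The summed level of thalamus genes was highest in fraction 8 and that of septum and basal forebrain genes in fraction 11. In fractions 7-9 the called thalamus gene was Tcf7l2 (2.43 ± 0.47, 1 of 8 tested), the called gene of the medial habenula list was Nr4a2 (1.67 ± 0.34, 1 of 7), and the hypothalamus list had 3 of 8 called, Pmch (7.14 ± 0.94), Avp (5.28 ± 0.88) and Hcrt (3.11 ± 0.48). Gbx2, a thalamic factor with one of the profiles most like that of Zic4, differed by 1.90 ± 0.43 in these fractions and missed the threshold (limma, adjusted p = 0.058).

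In fractions 10, 11 and 12 the level of Zic2 was 0.17, 0.51 and -0.12, which made it the single probe of 6 that was called (difference -0.86 ± 0.23, limma, adjusted p = 0.038; 3.42% of all probes were called lower). That call was lost when 10 of the 15 fractions were left out singly. The first Zic4 probe was 2.19, 2.41 and 1.63 in the same fractions, above its median over the other coronal fractions. The second was 0.98, 1.00 and 0.17 against a median of 0.52, so it was below that median in fraction 12. The first Zic1 probe was 5.10, 5.29 and 4.70, below its own median (difference -0.67 ± 0.23, limma, adjusted p = 0.075). Of 7 septum and basal forebrain genes 4 were higher in this block, against 6.49% of all probes, led by Lhx8 (6.32 ± 0.69), Nkx2-1 (3.74 ± 0.86) and Isl1 (3.36 ± 0.33), and 1, Dbx1, was lower (-2.88 ± 0.41).

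At the olfactory bulb end Zic4, Zic2 and Zic5 were low, and no difference was called for Zic1. In fractions 13-15 lower levels were called for 4 of the 6 probes, against 11.5% of all probes called lower. The first Zic4 probe had levels of 0.32, 0.91 and 1.07 in fractions 13, 14 and 15 and of 1.18 to 2.98 in all others, without overlap, and fell by 1.26 on the log2 scale (SE 0.27, limma, adjusted p = 0.0065), a factor of 2.40. The second probe fell by 1.47 (SE 0.29, limma, adjusted p = 0.0043), also without overlap. Zic2 was -0.16, 0.50 and -0.04 and fell by 0.97 (SE 0.23, limma, adjusted p = 0.012). Zic5 was -4.78, -4.01 and -3.63 and fell by 1.20 (SE 0.28, limma, adjusted p = 0.00996), with its signal not well above background in fractions 13 and 14. With a normexp background correction this value was -0.27 (limma, adjusted p = 0.081), and without fraction 13 it was -0.88 (limma, adjusted p = 0.051).

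For Zic1 the same fractions held 4.52, 5.58 and 5.56, so that fraction 13 was its lowest coronal level and fractions 14 and 15 were close to its median of 5.45. The difference was -0.44 ± 0.23 (limma, adjusted p = 0.17) for the first probe and -0.13 ± 0.19 (limma, adjusted p = 0.66) for the second. Within slide 3, against fractions 9-11 only, lower levels were called for 1 probe, the first Zic4 probe, where 1.56% of all probes were called in either direction. The values that lost their call there were -1.87 (second Zic4 probe), -1.19 (Zic5) and -0.68 (Zic2), with adjusted p = 0.065, 0.17 and 0.40 by limma over 6 arrays.

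The rostral rise itself, from fraction 13 to the mean of fractions 14 and 15, was 1.05 and 0.72 for the Zic1 probes, 0.67 for both Zic4 probes and 0.39 for Zic2. For Zic5 no size is given, since fractions 13 and 14 were not well above background. These fractions are on 1 slide. For Zic2 the rise stood in fraction 14 (0.50) and hardly in fraction 15 (-0.04, against -0.16 in fraction 13). Before scaling, Zic2 was 274.6, 568.1 and 261.8 intensity units in fractions 13, 14 and 15. The Zic1 and Zic4 probes were higher in fractions 14 and 15 than in fraction 13 before scaling too. Of all arrays, that of fraction 14 had the fewest spots well above background (29598). That of fraction 15 had the lowest 75th percentile (8.07). Set against the mean of fractions 1-3, the mean of fractions 14 and 15 was lower by 1.11 for Zic1, 1.47 for Zic4 and 1.59 for Zic2 (first probes), or 2.16, 2.77 and 3.00 fold. For these 3 genes the rostral level was below that of fraction 9 and of fractions 1-3. The second Zic1 probe, however, was only 0.08 lower than in fraction 9. Smaller local peaks stood in fraction 11 for Zic1, Zic2 and Zic4 and in fraction 6 for Zic2, Zic4 and the second Zic1 probe, and that of Zic1 in fraction 11 (5.29) was below its rostral mean (5.57). The 10 olfactory bulb genes had a median difference of 2.88 in fractions 13-15, where 14.7% of all probes were called higher, led by Tbx21 (6.69 ± 0.48), Cdhr1 (4.25 ± 0.46) and Sp8 (4.13 ± 0.80), and a summed level of 4.89 to 7.21 against 3.86 to 4.32. Of the hedgehog genes 1 was higher and 3 were lower, among them Hhip (-1.78 ± 0.25), Shh (-1.64 ± 0.31) and Ptch1 (-0.65 ± 0.16).

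**Figure D2:**
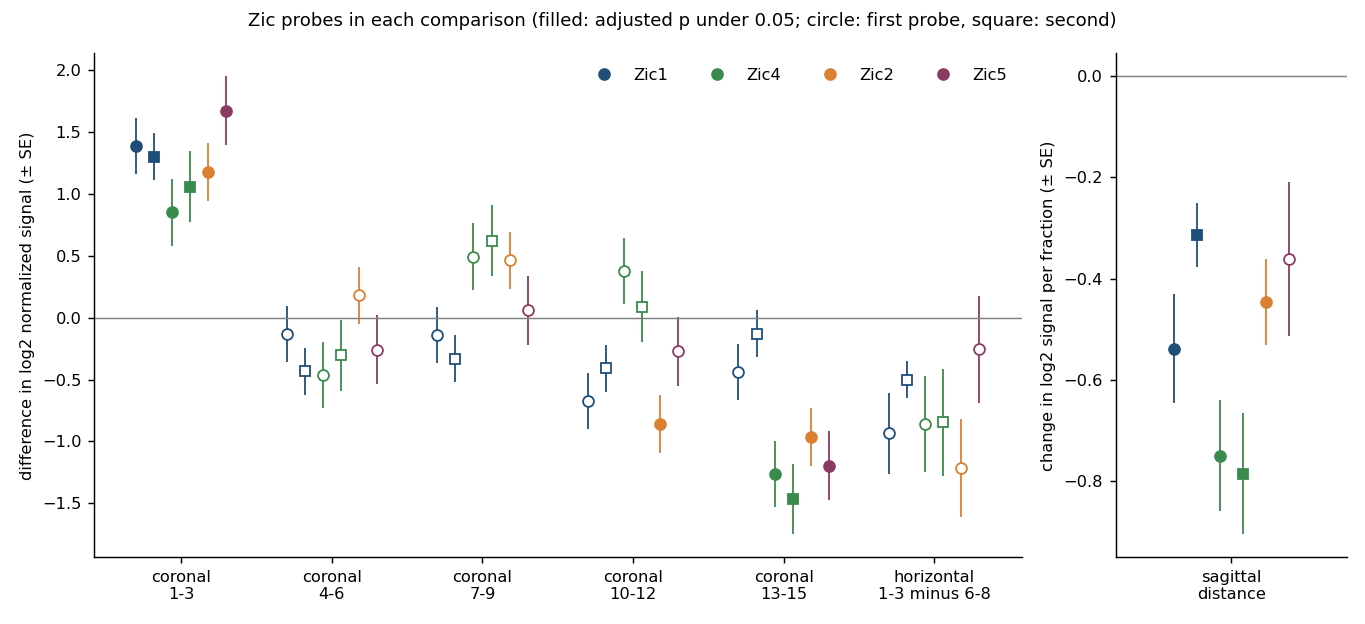
Difference in log2 normalized signal (left axis, ± SE) for the 5 coronal blocks against the other coronal fractions and for horizontal fractions 1-3 minus 6-8, and change per fraction of distance from sagittal fraction 6 (right panel, ± SE). Filled symbols passed an adjusted p of 0.05; the 6 probes are filled above 0 in coronal 1-3, 4 are filled below 0 in coronal 13-15 while both Zic1 probes are open, and 5 are filled below 0 for the sagittal distance.

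In the sagittal series all 6 probes were highest in the middle fraction, number 6, and lowest in fraction 1, where Zic5 was not well above background. Fraction 6 was taken as the midline, which the labels do not state. Zic4 was steepest: its first probe had levels of 2.60, 3.21 and 2.69 in fractions 5, 6 and 7 and of -1.32, -0.39, 1.69, 1.46, 1.63, 1.46, 1.54 and -0.14 in fractions 1, 2, 3, 4, 8, 9, 10 and 11. It decreased by 0.75 per fraction (SE 0.11, limma, adjusted p = 0.00099), and its second probe decreased by 0.79 (SE 0.12, limma, adjusted p = 0.0013). Fraction 6 was 23.1 and 36.3 fold above fraction 1, the single sagittal array on slide 3, and 10.2 and 11.0 fold above fraction 11 at the other end. The Zic4 signals in fraction 1 were dim, 129.0 and 35.4 intensity units, so the folds over it may depend on how the background is handled. Fractions 5 to 7 lay above all 8 others for both probes.

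Zic1 was 5.88, 6.29 and 5.98 in fractions 5, 6 and 7 and 2.82 to 5.66 in the others, with a median of 5.33. It decreased by 0.54 per fraction (SE 0.11, limma, adjusted p = 0.0045), and the second probe decreased by 0.31 (SE 0.06, limma, adjusted p = 0.0048). Zic2 was 1.46, 2.00 and 1.57 in the middle fractions and -0.80 to 1.32 elsewhere, and decreased by 0.45 (SE 0.08, limma, adjusted p = 0.0036). For these genes too the 3 middle fractions did not overlap with the others, a description given without the share of all probes.

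Zic5 was -3.10, -2.35 and -2.83 in fractions 5, 6 and 7 and -6.12 to -2.80 elsewhere, with fraction 10 above fraction 7. Its change of -0.36 ± 0.15 per fraction missed the threshold (limma, adjusted p = 0.099), and it passed without fraction 10 or without fraction 11 (limma, adjusted p = 0.0496 and 0.0495). Without fraction 1 its change was -0.17. In all, 5 of 6 probes fell with distance, against 9.97% of all probes. With the slide as a term in the fit, 3 of the 6 were called: both Zic4 probes and the second Zic1 probe. Of all probes 6.27% were called in either direction in that fit. Within slide 4, which holds fractions 2 to 9, 3 were called: both Zic4 probes and Zic2. There 5.7% of all probes were called in either direction.

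The profile was not a smooth decline. Between fractions 3 and 9 the first Zic1 probe stayed between 5.30 and 6.29, and all 6 probes had a local peak in fraction 3 and in fraction 10. In fraction 3 the rise over the nearer neighbour was 0.08 to 0.39 for the probes of Zic1, Zic2 and Zic4 and 0.75 for Zic5. In fraction 10 it was 0.01 to 0.43 over the 6 probes. The peak in fraction 3 depends on the scaling, as the 75th percentiles of fractions 3 and 4 were 8.50 and 9.13. Before scaling, Zic1, Zic2 and Zic4 were lower in fraction 3 than in fraction 4 (first Zic1 probe: 18324.8 against 22842.8 intensity units). Zic5 was higher (44.4 against 40.6). The share of all probes with such peaks is not given. For the first Zic1 probe the steepest drops came outside fractions 3 to 10. They ran from 5.66 in fraction 3 to 3.90 and 2.82 in fractions 2 and 1, and from 5.51 in fraction 10 to 3.86 in fraction 11. Zic2 dropped from 1.30 in fraction 10 to -0.64 in fraction 11.

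Of 16 lists 6 had their highest summed level in sagittal fractions 5-7: granule cell genes (6.54 in fraction 7, lowest 5.98), Purkinje cell genes (4.90 in fraction 7, lowest 3.31), thalamus genes (5.21 in fraction 7, lowest 4.68), midbrain genes (4.19 in fraction 5, lowest 0.80), olfactory bulb genes (5.20 in fraction 5, lowest 2.72) and Cajal-Retzius genes. Of all probes 18.3% rose with distance (29.9% with median scaling, and 12459 of 34186 probes with normexp). With the scaling used here 9.97% fell. These shares are the background for the lists that follow. Of 12 tested genes of the dorsal midline and roof plate 3 fell with distance, Lmx1a (-0.59 ± 0.16), Wnt8b (-0.51 ± 0.13) and Rspo1 (-0.36 ± 0.05), 3 rose, all of them Bmp genes, and 6 did not pass the threshold. The median was 0.09 per fraction against 0.01 over all probes, and the summed level was 3.66 to 4.19 in fractions 5-7 and 3.76 to 4.45 in the others. Wnt3a was not detected in any fraction.

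Of 6 Cajal-Retzius genes 3 fell, Lhx5 (-0.61 ± 0.09), Calb2 (-0.59 ± 0.05) and Lhx1 (-0.59 ± 0.08), which other neurons also express, while Trp73, the defining member, rose (0.18 ± 0.06) and 2 did not pass the threshold. Their summed level was 2.62 to 2.82 in fractions 5-7 and 0.99 to 2.52 elsewhere. Choroid plexus genes had 1 of 8 called, Otx2 (-0.56 ± 0.11), with a summed level of 6.14 to 7.48 in fractions 5-7 and 6.49 to 7.65 elsewhere. Among meningeal genes 4 of 11 rose with distance and none fell, with Foxc2 (0.29 ± 0.07), Slc6a13 (0.27 ± 0.06) and Aldh1a2 (0.25 ± 0.06) largest and a summed level of 5.87 to 6.66 in fractions 5-7 against 6.09 to 7.02. Skeletal muscle genes had 1 of 7 called, Myh3 (0.27 ± 0.05), with summed levels of 1.495 to 1.70 and 1.42 to 1.81. The part of these cell types in the Zic levels was not tested. Of 13 hedgehog genes 4 fell with distance, led by Shh (-0.33 ± 0.05), the ligand, Hhip (-0.30 ± 0.04), which binds it, and the receptor Ptch1 (-0.19 ± 0.05), 1 rose and 8 did not pass the threshold.

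Neither side of the sagittal series was called higher for any Zic probe (limma, 0 of 6, and 0 of 6 at an unadjusted p under 0.05; 0.0% of all probes were called, and 3263 of 34186 had an unadjusted p under 0.05). Fractions at the same distance from fraction 6 differed by -0.40 to 0.33 in the 3 inner pairs over the 6 probes (high minus low number), and by 0.10, -0.05 and -0.16 for the first Zic1 probe. Fraction 10 was above fraction 2 by 1.61 for Zic1, 1.93 for Zic4, 0.94 for Zic2 and 1.71 for Zic5, and fraction 11 was above fraction 1 by 1.04 for Zic1, 1.19 for Zic4 and 0.15 for Zic2. For Zic5 no size is given for the last pair, since fraction 1 was not well above background. Fractions 10 and 11 were on slide 5, fraction 2 on slide 4 and fraction 1 on slide 3, so slide and side cannot be told apart in these pairs.

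**Figure D3:**
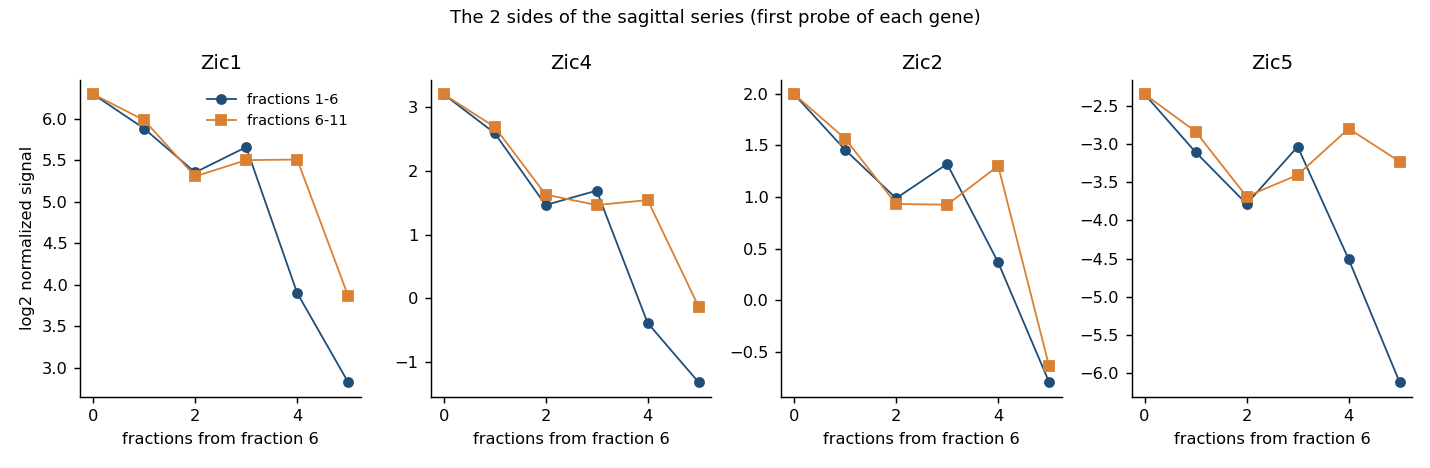
Log2 normalized signal (vertical axis) of the first probe of each gene against the distance in fractions from sagittal fraction 6 (horizontal axis), for fractions 1-6 (circles) and 6-11 (squares). Both sides lie within 0.40 of each other up to a distance of 3 and part at a distance of 4, where the Zic4 levels are -0.39 and 1.54.

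Along the horizontal series the highest level of every probe was in fraction 5. Fraction 4 came next for all but the second Zic4 probe, which was 1.1 in fraction 6 and 0.95 in fraction 4. Zic1 was 4.14, 3.86, 5.16, 5.77, 6.02, 5.61, 5.21 and 5.15 in fractions 1 to 8. Its lowest level was in fraction 2, 4.47-fold below fraction 5, and fraction 8 was 1.83-fold below fraction 5. Zic4 was 0.92, 0.16, 1.86, 2.36, 2.41, 2.06, 1.75 and 1.72, so that fraction 2 was 4.75-fold below fraction 5. Zic2 was -1.48, -0.14, -0.03, 1.22, 1.56, 1.04, 0.65 and 0.30, with its lowest level in fraction 1 and not in fraction 2.

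Zic5 had the same peak. Its levels were -3.55, -4.70, -3.29, -2.19, -0.99, -3.64, -3.78 and -3.35, and fraction 5 was its highest of all 34 fractions, 13.1-fold above fraction 2. Of 16 lists 6 had their highest summed level in fractions 4 or 5. Those of granule cell, Purkinje cell, Cajal-Retzius and hedgehog genes were highest in fraction 4, and those of choroid plexus genes (8.00, median 5.95) and skeletal muscle genes (2.92, median 1.90) in fraction 5. Since each of these fractions is a single array and the middle was not set against the ends in a fit, the peak is given as a description. Their part in the Zic levels was not tested.

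Between horizontal fractions 1-3 and 6-8 none of the 6 probes was called (limma; 3 of 6 at an unadjusted p under 0.05), where 0.617% of all probes were. All 6 values were below 0. Zic2 had the largest, -1.22 ± 0.40 (limma, adjusted p = 0.20), with levels of -1.48 to -0.03 in fractions 1-3 and 0.30 to 1.04 in fractions 6-8. The Zic1 probes gave -0.94 ± 0.33 and -0.50 ± 0.15 (limma, adjusted p = 0.22 and 0.17). None of the 8 cortex genes and none of the 13 hedgehog genes were called in this comparison, with medians of 1.14 and -0.002 against 0.06 over all probes.

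The profiles of the 4 genes were alike. Over the 34 fractions Pearson's r between the first probes of 2 genes was between 0.67 and 0.87 in the 6 pairs. The 99th percentile of r with all other probes was 0.68 for Zic1, 0.66 for Zic2, 0.61 for Zic4 and 0.60 for Zic5. The points behind r share arrays, mice and the gradient of neighbouring fractions, and r is given as a description. Probes of the same gene gave 0.93 for Zic1 and 0.98 for Zic4. For the linked pair Zic1 and Zic4 r was 0.87 (Spearman's rho 0.73), and for the linked pair Zic2 and Zic5 it was 0.67 (rho 0.72), the lowest of the 6. Zic1 and Zic2, on different chromosomes, had an r of 0.85 (rho 0.88).

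**Figure D4:**
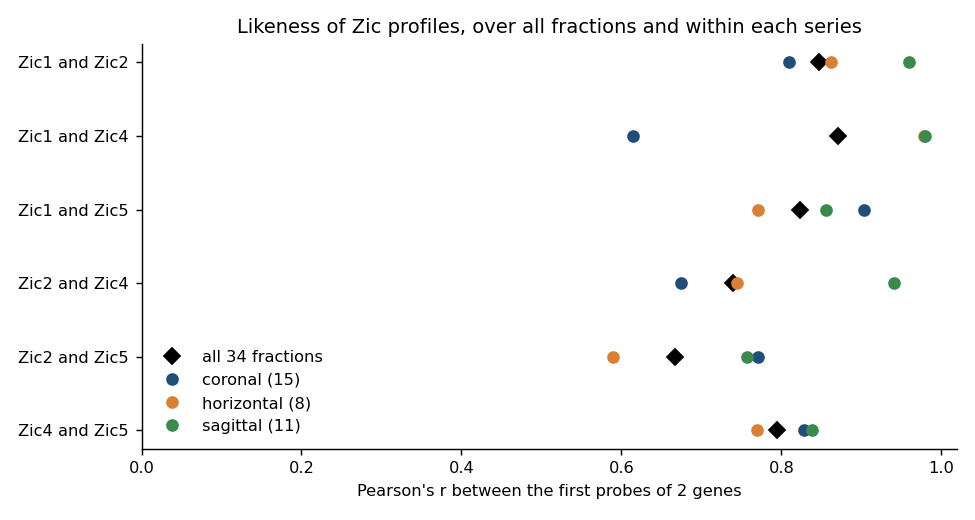
Pearson's r (horizontal axis) between the first probes of each pair of Zic genes (vertical axis), over all 34 fractions (diamonds) and within each series (circles). Zic1 and Zic4 range from 0.61 in the coronal series to 0.98 in both others, and Zic2 with Zic5 has the lowest r over all fractions, 0.67.

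The likeness of Zic1 and Zic4 was not the same along each axis. Within the horizontal and sagittal series r was 0.98 in each, and within the coronal series it was 0.61. For Zic2 and Zic5 the values were 0.77 in the coronal, 0.59 in the horizontal and 0.76 in the sagittal series. With series means removed r was 0.88 for Zic1 and Zic4 and 0.71 for Zic2 and Zic5. In the coronal series the profile most like that of Zic5 among the other 3 genes was that of Zic1 (0.90).

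The difference between the log2 levels of 2 genes was compared in 12 tests (3 pairs of genes in 4 comparisons), with exact two-sided permutation tests over fractions and Benjamini-Hochberg adjustment over the 12. These tests treat the fractions of a series as exchangeable, although neighbouring fractions share tissue borders, which can make p too small. None passed an adjusted p of 0.05. The smallest was for Zic1 and Zic4 in the sagittal series, where the level of Zic1 less that of Zic4 was 3.09 to 3.29 in fractions 5-7 and 3.68 to 4.29 in the 8 others, without overlap. The rise toward the middle was 1.32 for Zic1 and 2.09 for Zic4, a difference of -0.78 (exact permutation p = 0.00606, the smallest this design allows, adjusted p = 0.073).

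In coronal fractions 13-15 Zic1 changed by -0.44 and Zic4 by -1.26, a difference of 0.83 (exact permutation p = 0.035, adjusted p = 0.21). With the other probe of both genes, an alternative chosen after seeing the data, this difference was 1.34 and passed (exact permutation test, adjusted p = 0.026). In coronal fractions 1-3 both rose, with a difference of 0.53 (exact permutation p = 0.22, adjusted p = 0.52). Zic2 and Zic5 differed by -0.50 in coronal fractions 1-3 (exact permutation test, adjusted p = 0.52) and by 0.07 in the middle sagittal fractions (adjusted p = 0.87, exact permutation test). The horizontal comparison has 20 assignments and cannot give a p under 0.1.

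**Figure D5:**
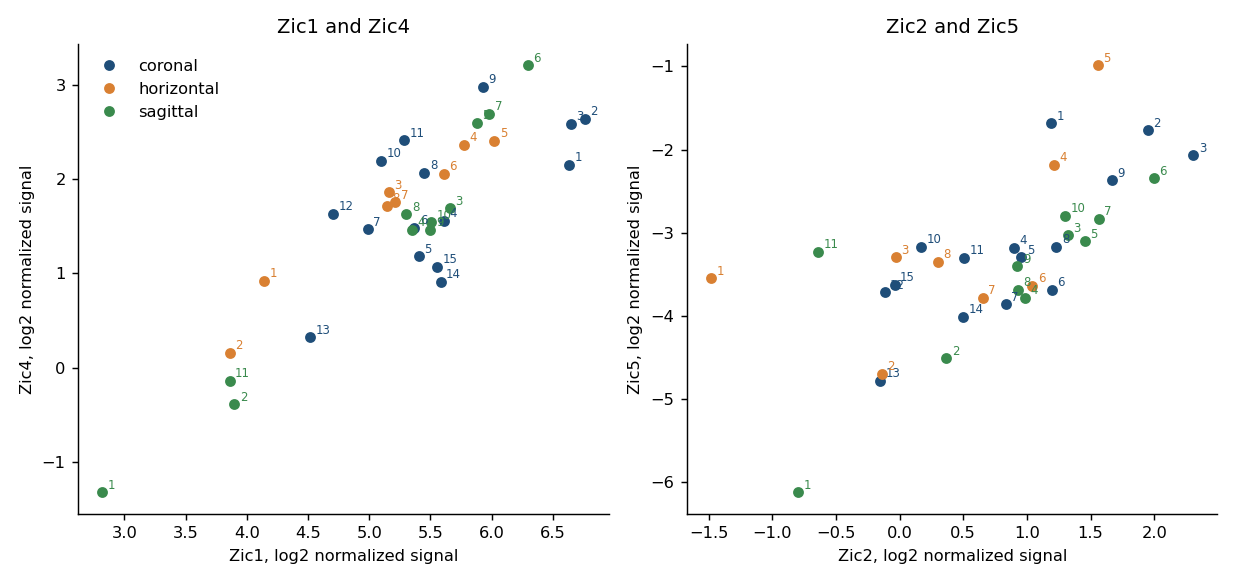
Log2 normalized signal of Zic4 against Zic1 (left) and of Zic5 against Zic2 (right), first probes, 1 point per fraction with its number and coloured by series. Coronal fractions 1 to 3, 14 and 15 lie to the right of the other Zic1 and Zic4 points at the same Zic4 level, and sagittal fraction 1 is the lowest point of both panels.

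The genes whose profiles were most like those of the Zic genes over the 34 fractions were found among gene-named probes detected in each series. For Zic1 they were Pax6 (r = 0.90), a factor of granule cells and olfactory bulb neurons, Zic4 (0.88, second probe), Megf10 (0.86), an engulfment receptor of astrocytes, Tmtc2 (0.85) and Zic2 (0.85). Within the 3 series the r of Pax6 was 0.84, 0.95 and 0.96. For Zic4 they were Id4 (0.89), an inhibitor of basic helix-loop-helix factors, Gbx2 (0.87), Zic1 (0.87), Vwa5b1 (0.83) and Cd70 (0.81).

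Zic2 was most like Zic1 (0.85), and then Pik3r3 (0.83), Tgfb2 (0.81), a growth factor, B3gat2 (0.81) and Tmtc2 (0.80). Zic5 was most like Zic1 (0.82) and Zic4 (0.82, second probe), followed by Cntrl (0.79), Cdc14a (0.78) and Clybl (0.78). Another Zic gene was thus among the 5 most alike genes of each member. For Zic2 and Zic5, however, the linked partner was not: ranked by r among the 34185 other probes, Zic5 was number 294 for Zic2, and Zic2 was number 120 for Zic5. For the pair on chromosome 9 the first Zic4 probe was number 7 for Zic1, and Zic1 was number 4 for Zic4.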

How the data were processed

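RNA of the 34 fractions was measured on single-colour Agilent SurePrint G3 mouse arrays. The authors processed the scans with Agilent Feature Extraction 10.10.1.1 and deposited, for each array, intensity values per spot (processed signal, median signal and median background) and flags; in the processed signal the background is removed and arrays are not scaled to each other. A second deposited table holds the authors' log2 values, 99.9% of which lay within 0.02 of the values computed here. Replicate spots without an outlier flag were averaged, and from their log2 the array's 75th percentile was subtracted. Probes detected somewhere in every series (34186) entered lmFit and eBayes of limma 3.58.1 (R 4.3.3), with a threshold of 0.05 on p after Benjamini-Hochberg adjustment over all of them. Coronal blocks of 3 fractions were set against the other 12, horizontal fractions 1-3 against 6-8, sagittal fractions against the distance from fraction 6, and sides as mirror pairs. The fits were tried on simulated data with independent noise in each fraction, which cannot show how they behave where neighbouring fractions are alike. Of 50 planted differences of 1, these found 32 in coronal fractions 1-3 and 17 in the horizontal comparison. Correlations and exact tests used Python 3.11.15, numpy 2.4.6 and scipy 1.17.1.

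Alternatives were quantile normalization, median scaling, normexp (offset 50, on the median signal), the authors' log2 values, no detection filter, detection in all 34 fractions, limma-trend, the slide as a term or within 1 slide, and leaving out single fractions. The members, the gene lists and the tests were chosen with earlier results of these data known. Genes were named by rule: all Zic probes, the 5 genes most alike, and up to 3 called genes with the largest value of each list, beside members named to complete a count. A gene with several probes was taken by the one with the highest median, called the first probe. Symbols came from a RefSeq table of assembly GRCm38.p6. For 1 more gene covered by the accession match no value is given. The number of arrays limits the precision.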

Additional observations from a re-analysis of the deposited data

How the results depend on the processing

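No paired analysis was possible because a number shared by series marks positions on different axes of different mice. The mirror pairs of the sagittal series pair positions on 1 axis, not such numbers. Percentages in brackets are shares of all probes called in either direction. The number of called Zic probes in coronal fractions 10-12 was 1 as reported. It was 0 with median scaling (6.01%), with no detection filter (2.69%) and with the slide as a term (0.0263%). It was 2 among probes detected in all 34 fractions (16.2%), and 0 to 2 when single fractions were left out. In coronal fractions 13-15 it was 1 of 6 within the slide in place of 4, with values of -1.87 (-1.47 as reported) for the second Zic4 probe and -1.19 (-1.20 as reported) for Zic5 over fewer arrays. For the sagittal distance it was 3 of 6 with the slide as a term (6.27%) and 3 within the slide (5.7%), in place of 5. In coronal fractions 1-3 it stayed between 4 and 6 under every alternative run. With normexp the value of Zic5 in coronal fractions 1-3 was 0.76 in place of 1.67, and in fractions 13-15 it shrank to -0.27 (limma, adjusted p = 0.081). Leaving out single fractions moved the second Zic1 probe in fractions 13-15 between -0.25 and 0.11, above 0 without fraction 13. Some differences between 2 genes that had not passed changed sign: Zic2 less Zic5 was 0.28 in coronal fractions 1-3 and -0.62 in 13-15 with normexp, and with the other probes Zic1 less Zic4 was 0.35 in the horizontal series and Zic1 less Zic2 was -0.21 in the sagittal series. The r of Zic1 and Zic4 was 0.728 by Spearman's rho, and by series it was 0.614 (coronal), 0.978 (horizontal) and 0.980 (sagittal). The r of Zic2 and Zic5 was 0.771 within the coronal series and 0.554 with normexp. Outside coronal fractions 13-15, 24 values had an unadjusted limma p at or over 0.05, and 14 of them changed sign under at least 1 alternative. For the other changes the cause was not tested.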
